A study of Mus musculus with 15 samples.

Results

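Semaphorins, plexins and neuropilins were followed in mouse first branchial arches at E10.5 (E, embryonic day), the swelling whose maxillary branch forms the upper jaw and whose mandibular branch forms the lower jaw. A probe set of the array counted as a member when its only gene symbol began with Sema and a digit or with Plxn, or was Nrp1 or Nrp2. This gave 79 probe sets of 32 genes, out of 45037 probe sets of 18193 genes on the array apart from its control probe sets. They comprised 48 probe sets of 20 semaphorin genes, 23 of 10 plexin symbols, 1 of which is the antisense transcript Plxna4os1, and 8 of the 2 neuropilin genes. Probe sets above the 40th percentile of their array on at least 3 arrays were tested, and 64 member probe sets of 29 genes passed. No probe set of Sema3b (3), Sema6b (1) or Plxna4os1 (1) was above that percentile on enough arrays, and their deposited signals lay between 0.923 and 23.8.

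The study hybridised total RNA of the dissected branches to 15 arrays in 5 groups of 3. Wild-type (WT) mandibular branch carried the tag WT_MNA, and mandibular branch of embryos mutant for Dlx5 and Dlx6 the tag 5_6_MNA. Wild-type maxillary branch formed a pair of groups with the tags WT_MXA and WT_MXA2, here called set 1 and set 2, and the labels did not say what set them apart. Knockout (KO) maxillary branch carried the tag KO_MXA, which names no gene, while the shared sample description lists dlx2, dlx1/2 and Dlx5/6 mutants besides wild type. That description was written before the dissections and expected about 10 arches to be needed for each experiment. Whether the arrays of a group stand for different animals or pools is not stated, so p-values here measure only the spread between these arrays, which may be technical. No group was said to carry a transgene, and no source used here gave the strain or the structure of the mutant alleles.

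Semaphorins are secreted or membrane-bound guidance proteins that steer axons, neural crest cells and endothelial cells. Plexins are their signalling receptors. Most secreted class 3 semaphorins cannot bind a plexin alone and act through neuropilins, which hold ligand and class A plexin together and also bind members of the VEGF family. Semaphorins of the other classes bind plexins directly. In the arches these proteins are known for steering cranial nerves and migrating crest cells. Dlx5 and Dlx6 encode homeodomain transcription factors that give the mandibular branch its identity.

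The labels were first set against the Dlx genes, with the mean ± SD of the deposited signal (n = 3). Dlx5 stood at 10.9 ± 2.97 in Dlx5/6 mutant and 727 ± 40.5 in WT mandibular arrays, and Dlx6 at 3.32 ± 1.52 and 249.6 ± 51.3. In KO maxillary arrays Dlx2 stood at 3.36 ± 0.180, against 422 ± 20.1 in set 2 and 284 ± 3.05 in set 1, and Dlx1 at 209 ± 11.7, against 711 ± 30.8 in set 2 and 630.0 ± 10.2 in set 1. Dlx5 was also lower there, at 33.5 ± 5.98, against 117 ± 24.6 in set 2 and 127 ± 11.5 in set 1. Dlx6 stood at 15.6 ± 12.5 in KO arrays, 29.2 ± 5.08 in set 2 and 30.4 ± 9.69 in set 1. All 8 listed markers of arch mesenchyme were tested, and that list's mean log2 level was 9.08 to 9.21 in WT mandibular, 9.36 to 9.46 in Dlx5/6 mutant mandibular, 9.50 to 9.57 in set 1, 9.55 to 9.59 in set 2 and 9.19 to 9.20 in KO arrays. The list includes Dlx2, so its level in KO arrays carries the low Dlx2 signal. Arrays had median signals of 26.6 to 33.5, and arrays of a group correlated at 0.984 to 0.990 on the log2 scale. The arrays fell into 2 sets by the bacterial dap control, which read 282 to 364 on 9 arrays, namely the mandibular groups and set 1, and 2672 to 3035 on 6 arrays, namely the KO group and set 2. KO arrays were therefore compared with set 2, and mandibular arrays with set 1. Sensory neuron markers moved between groups too: 10 listed genes were tested, and their mean log2 level was 5.96 to 6.07 in WT mandibular, 6.19 to 6.23 in Dlx5/6 mutant mandibular, 7.96 to 7.99 in set 1, 6.99 to 7.06 in set 2 and 6.68 to 6.71 in KO arrays.

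Below, a log2 change comes from a limma fit to all 15 arrays on the log2(signal + 32) scale, which understates the change of dim genes, and its ± is a standard error. A probe set was called when limma's adjusted p (Benjamini and Hochberg, over all 31677 probe sets tested) was under 0.05, and intervals are 95% intervals.

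Nrp1 and Plxna2 carried the main findings, and the windows upstream of their start sites are printed because Dlx proteins bind DNA at motifs with a TAAT core. The windows hold the 250 bases before the RefSeq start (GRCm38.p6, plus strand, 5′ to 3′), at chr8:128358823-128359072 for Nrp1 and chr1:194619579-194619828 for Plxna2. The Nrp1 window lies inside the annotated gene, another transcript of which starts further upstream. Capitals mark TAAT.
Nrp1: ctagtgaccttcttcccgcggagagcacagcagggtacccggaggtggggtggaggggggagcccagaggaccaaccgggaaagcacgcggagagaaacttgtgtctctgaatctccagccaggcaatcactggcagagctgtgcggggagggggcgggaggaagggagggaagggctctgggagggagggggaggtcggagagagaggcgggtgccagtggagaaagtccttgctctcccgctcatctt
Plxna2: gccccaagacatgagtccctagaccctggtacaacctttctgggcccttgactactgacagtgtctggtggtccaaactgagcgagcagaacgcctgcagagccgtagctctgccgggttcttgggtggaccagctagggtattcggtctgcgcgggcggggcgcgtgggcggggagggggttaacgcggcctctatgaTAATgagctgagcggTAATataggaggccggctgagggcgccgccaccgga
The Plxna2 window holds 2 TAAT matches on the printed strand, beginning 51 and 36 bases before the start, and the Nrp1 window holds none on either strand. Among all 32851 such windows, 54.9% hold TAAT on at least one strand, as do 14 of the 37 windows (37.8%) found for 26 of the 32 member genes. The longer motif TAATTA, which contains TAAT, occurs in 4.8% of all windows and in 0 of the 37. A match is a description of the letters and no evidence of binding.

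The first comparison asked how the wild-type mandibular and maxillary branches differ. WT mandibular arrays had less signal for the neuropilin gene Nrp1 and more for the receptor gene Plxna2 and for 1 probe set of the ligand gene Sema3a than WT maxillary arrays of set 1. Of the 64 member probe sets tested, 6 were called, 4 higher and 2 lower. Over all probe sets tested, 2.63% were called, 1.12% higher and 1.52% lower. Higher probe sets made up 42.4% of those calls, and 56.7% when the arrays were only shifted to a common median. The median log2 change was -0.07 over the members and 0.01 over all probe sets. Groups did not overlap for 21 of the 64 member probe sets (32.8%), against 17.4% of all probe sets. RNA came from whole branches, so fewer cells that express a gene and less RNA per cell cannot be told apart here.

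Nrp1 encodes the co-receptor of Sema3a and of VEGF-A. Its brightest probe set, 1448943_at, read 365, 309 and 360.0 on the WT mandibular arrays and 583, 487 and 498 on those of set 1, a log2 change of -0.57 ± 0.10 (adjusted p = 0.000637). The probe set 1418084_at read 163, 147 and 157 against 249, 279.7 and 269, a change of -0.67 ± 0.09 (adjusted p = 1.83e-05). Every mandibular array lay below every maxillary array for both. The other two Nrp1 probe sets, 1448944_at (-0.29 ± 0.11) and 1457198_at (-0.52 ± 0.16), also showed no overlap but were not called (adjusted p = 0.211 and 0.0866). With set 2 as the maxillary group all 4 were called, from -0.35 for 1448944_at to -0.78 for 1448943_at.

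Plxna2 encodes a class A plexin that pairs with neuropilins and also binds class 6 semaphorins. Its brightest probe set, 1453286_at, read 201, 239 and 259.5 on WT mandibular arrays and 122, 169 and 154 on those of set 1 (0.56 ± 0.11, adjusted p = 0.00437). The probe set 1455037_at read 225, 239 and 183 against 121, 97.6 and 90.3 (0.87 ± 0.16, adjusted p = 0.00139). The probe set 1451753_at read 168, 184 and 191 against 92.3, 99.7 and 125 (0.63 ± 0.14, adjusted p = 0.0146). All 3 mandibular arrays were above all 3 maxillary arrays in these probe sets. The dim probe set 1429772_at read 46.9 to 56.2 against 30.4 to 48.6 and was not called (0.27 ± 0.19). Against set 2 the call of 1455037_at stayed (0.86, adjusted p = 0.000746), while 1453286_at changed by 0.14 (adjusted p = 0.500) and 1451753_at by 0.42 (adjusted p = 0.0692). The call of 1451753_at was also lost when WT mandibular replicate 2 or 3 or set 1 replicate 1 or 2 was left out, with adjusted p between 0.0605 and 0.0841.

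**Figure D1:**
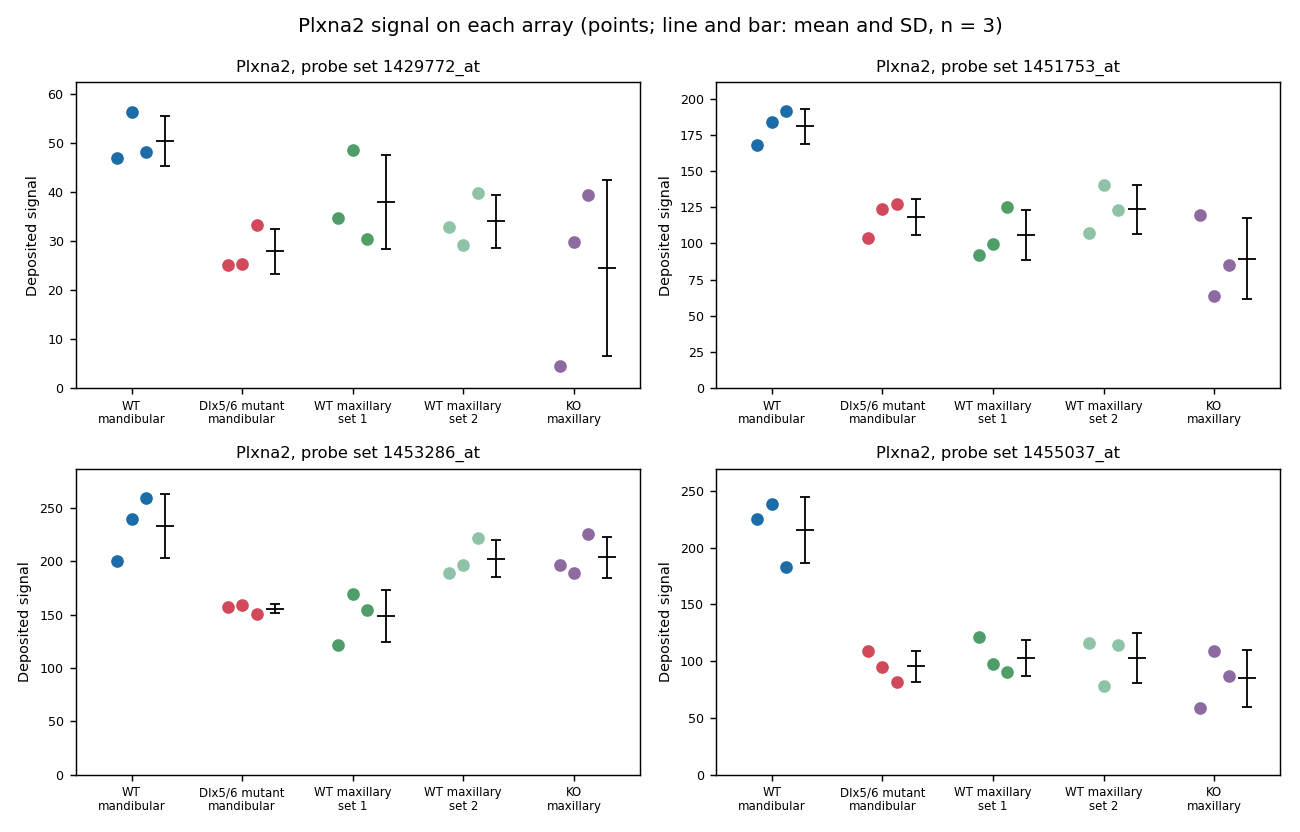
Deposited Plxna2 signal (linear scale from 0) in each of the 4 Plxna2 probe sets, by group. Points are arrays, and the line and bar beside them are the mean and SD (n = 3). The WT mandibular arrays lie highest for 1455037_at and 1451753_at, while for 1453286_at the arrays of set 2 and the KO group (189 to 225) reach into the WT mandibular range of 201 to 259.5.

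Among the ligands, Sema3a, a repellent of sensory axons, differed in 1 of 3 probe sets. The probe set 1449865_at read 287, 285 and 299 on WT mandibular arrays and 219, 211 and 207 on those of set 1, a change of 0.40 ± 0.09 (adjusted p = 0.00716). The brightest Sema3a probe set, 1420416_at, read 415, 376 and 391 against 337, 362 and 339. It changed by 0.17 ± 0.09 and was not called (adjusted p = 0.463), although the groups did not overlap. The third, 1420417_at, read 43.4 to 89.2 against 60.1 to 75.9, with 0.04 ± 0.15.

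No semaphorin of classes 4 to 7 was called between WT mandibular and set 1 arrays. All 3 tested probe sets of Sema5a, a membrane protein with thrombospondin repeats, had higher mandibular means, by 0.31 to 0.38, with adjusted p from 0.104 to 0.349. Sema5a 1434776_at was called after the median shift (0.44, adjusted p = 0.0411), and 1437422_at without WT mandibular replicate 1 (0.52, adjusted p = 0.0127). Against set 2, Sema5a 1434776_at (0.45, adjusted p = 0.0146) and 1422167_at (0.54, adjusted p = 0.0202) and Sema6d 1453055_at (0.35, adjusted p = 0.0294) were called. In the brightest probe sets of the other member genes, the changes ran from -0.39 ± 0.15 for Sema5b to 0.38 ± 0.23 for Sema4f. The other Sema4f probe set, 1439768_x_at, was passed over for its ID and went the other way (-0.43 ± 0.16, adjusted p = 0.230). Both Sema4f probe sets were dim. Sema3c, a ligand known to guide cardiac crest cells, stood at -0.34 ± 0.11 (adjusted p = 0.116), and Plxnd1, the Sema3e receptor of endothelium, at -0.32 ± 0.11 (adjusted p = 0.174). Plxnb2, a receptor of class 4 semaphorins with deposited signals of 420.3 to 516 in both groups, stood at -0.01 ± 0.10.

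Cell type markers moved alongside the branch difference. All 10 sensory neuron genes tested and 3 of the 4 tested markers of crest-derived glia (of 6 listed) were lower in WT mandibular than in set 1 arrays. Of the 10 macrophage markers 1 was lower, Csf1r by -0.62 ± 0.09, and that list's mean log2 level was 6.03 to 6.12 against 6.24 to 6.31. None of the 10 endothelial markers and none of the 10 epithelial markers was called, and the endothelial list's level was 6.97 to 7.13 against 7.12 to 7.25. Of 7 tested markers of arch mesoderm and muscle (of 8 listed), Myf5 (1.12) and Tcf21 (1.13) were higher and Isl1 (-0.42), also on the sensory neuron list, was lower. The arch mesenchyme list moved as well, with levels of 9.08 to 9.21 in WT mandibular and 9.50 to 9.57 in set 1 arrays. Of its 8 genes 5 were lower, among them Alx1 (-1.60) and Prrx2 (-0.81), and Pdgfra was higher (0.33). The part of these cells in the differences of Nrp1, Plxna2 and Sema3a was not tested.

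The second comparison asked how Dlx5/6 mutants differ from wild type in the mandibular branch. Nrp1 rose and Plxna2 fell, and 1 probe set of Sema5a was called lower. Of the 64 member probe sets 7 were called, 4 higher, all of Nrp1, and 3 lower. Over all probe sets, 2.63% were called, 1.39% higher and 1.24% lower. The members' median log2 change was 0.00, as was that of all probe sets. The groups did not overlap for 20 of the 64 member probe sets (31.2%), against 18.8% of all probe sets. This comparison shares its WT mandibular arrays with the first, so an array deviating there moves both.

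Nrp1 rose in all 4 of its probe sets. In 1448943_at the Dlx5/6 mutant arrays read 559, 586 and 475 where WT mandibular arrays read 365, 309 and 360.0, a change of 0.61 ± 0.10 (adjusted p = 0.000395) and a ratio of mean signals of 1.57. In 1418084_at they read 294, 306 and 266 against 163, 147 and 157 (0.78 ± 0.09, adjusted p = 3.21e-06). Mutant and wild-type arrays were well apart in both.
The dimmer probe set 1457198_at read 178, 174 and 145 against 65.5, 87.1 and 92.7 (0.80 ± 0.16, adjusted p = 0.00374). The probe set 1448944_at read 161, 150.2 and 205 against 130.4, 106 and 108 (0.48 ± 0.11, adjusted p = 0.0125). Its call was lost without Dlx5/6 mutant replicate 3 (0.38, adjusted p = 0.105), without WT mandibular replicate 2 or 3, and when only the groups compared were fitted (adjusted p = 0.0553). The other three were called under every one of the 18 alternative settings tried.

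**Figure D2:**
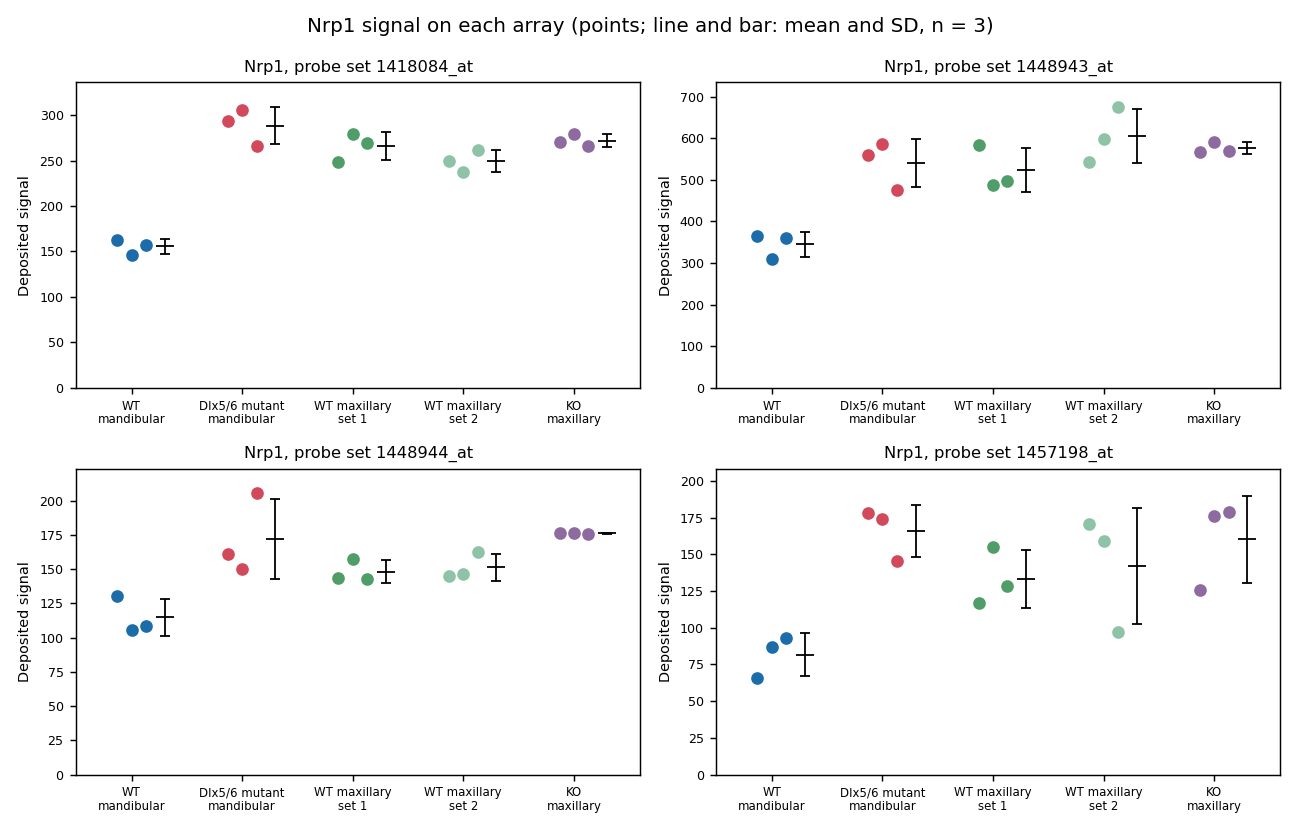
Deposited Nrp1 signal (linear scale from 0) in each of the 4 Nrp1 probe sets, by group. Points are arrays, and the line and bar are the mean and SD (n = 3). The WT mandibular arrays are lowest in every panel, at 309 to 365 for 1448943_at where the arrays of the other groups lie between 475 and 674.

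Plxna2 had lower mutant means in all 4 of its probe sets, and 2 of them were called. In 1455037_at the Dlx5/6 mutant arrays read 109, 95.02 and 81.7 against 225, 239 and 183 in WT mandibular arrays (-0.92 ± 0.16, adjusted p = 0.000946), so that the wild-type mean signal was 2.26 times the mutant mean. In 1453286_at they read 157, 159 and 150.4 against 201, 239 and 259.5 (-0.47 ± 0.11, adjusted p = 0.0213). The mutant arrays lay below the wild-type arrays in both. The probe sets 1451753_at (104, 124 and 127 in the mutant) and 1429772_at (25.1, 25.3 and 33.1) had changes of -0.48 ± 0.14 and -0.46 ± 0.19 without overlap and were not called (adjusted p = 0.0917 and 0.250). The first of them was called with only the groups compared (adjusted p = 0.0301) and after the median shift (-0.53, adjusted p = 0.0449). The call of 1453286_at was lost without any one of the 3 mutant arrays or WT mandibular replicate 2 or 3 (adjusted p from 0.0578 to 0.124), while the change stayed between -0.49 and -0.40. That of 1455037_at held under all 18 alternatives, with adjusted p of at most 0.0120.

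Sema5a was the semaphorin called in the mutant mandibular branch, in 1 of its 3 tested probe sets. The probe set 1434776_at read 139.9, 142 and 125 on mutant arrays and 239, 191 and 197 on WT mandibular arrays (-0.49 ± 0.12, adjusted p = 0.0228). The brightest Sema5a probe set, 1437422_at, read 307, 319.7 and 334 against 238, 369 and 399, with overlap and a change of -0.02 ± 0.14. The dim 1422167_at read 32.5 to 34.8 against 37.9 to 45.6 (-0.17 ± 0.15, adjusted p = 0.730). The call was lost without any one mutant array or WT mandibular replicate 1 (adjusted p from 0.0519 to 0.124), with changes of -0.52 to -0.40.

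Sema3a, higher in the wild-type mandibular branch in 1449865_at, read 245, 248 and 228 on mutant arrays in that probe set, between the wild-type mandibular (285 to 299) and set 1 (207 to 219) values. The change from WT mandibular was -0.23 ± 0.09 and was not called (adjusted p = 0.202). The dimmer Sema3c probe set 1420696_at read 66.6, 79.0 and 77.4 against 40.1, 43.1 and 41.2 in WT mandibular arrays. Its change of 0.53 ± 0.16 was not called (adjusted p = 0.0794), and the brighter Sema3c probe set changed by 0.19 ± 0.11 (adjusted p = 0.476). Nrp2, the other neuropilin, was not called in any of its 4 probe sets. Its brightest, 1435349_at, read 264, 228 and 214 in mutant and 277, 281 and 283 in WT mandibular arrays (-0.22 ± 0.10, adjusted p = 0.344). No plexin other than Plxna2 was called, and in the brightest probe sets of the others the changes ran from -0.15 ± 0.14 for Plxnb1, a receptor of Sema4d, to 0.28 ± 0.16 for Plxnc1, the receptor of Sema7a.

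Beside these changes, 1 of 10 macrophage markers rose in the mutant, Csf1r by 0.59 ± 0.09, and the list's mean level was 6.31 to 6.41 against 6.03 to 6.12 in WT mandibular arrays. Of the 10 sensory neuron genes tested 1 rose, Neurod1, with list levels of 6.19 to 6.23 against 5.96 to 6.07. None of the 10 markers of endothelium was called, and that list's levels overlapped (6.98 to 7.22 against 6.97 to 7.13). None of the 4 glial or 10 epithelial markers was called. Of the mesoderm and muscle markers Myf5 fell by 0.92 on the log2 scale. Of the 8 arch mesenchyme markers Alx1 (0.99), Prrx2 (0.50) and Twist1 (0.45) rose and Msx1 fell (-0.57), and the list's level was 9.36 to 9.46 against 9.08 to 9.21. The part of macrophages, neurons, endothelium, muscle precursors and mesenchyme in the member changes was not tested.

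The Dlx5/6 mutant mandibular arrays were then set against wild-type maxillary arrays of set 1, which asks how far the mutant branch stands from the maxillary branch. No member probe set was called by limma, against 0.593% of all probe sets (34.0% of those calls higher, 46.0% after the median shift). For Nrp1 in 1448943_at the change was 0.04 ± 0.10 with an interval from -0.16 to 0.24, and in 1418084_at it was 0.11 ± 0.09 (-0.07 to 0.29). For Plxna2 it was 0.08 ± 0.11 (-0.15 to 0.32) in 1453286_at and -0.06 ± 0.16 (-0.38 to 0.27) in 1455037_at. The mutant and set 1 arrays overlapped in all of these probe sets. These intervals do not show that the levels are equal. Against set 2 the Plxna2 change in 1453286_at was -0.33 ± 0.11 (adjusted p = 0.0640). With that control 4 members were called: Plxnb2 1416683_at (0.44), Sema3a 1449865_at (0.29), Sema3d 1429459_at (-0.58) and Sema6c 1451898_a_at (-0.81). All 3 comparisons of mandibular arrays share groups in pairs, so their values are given side by side and no agreement between them is counted.

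**Figure D3:**
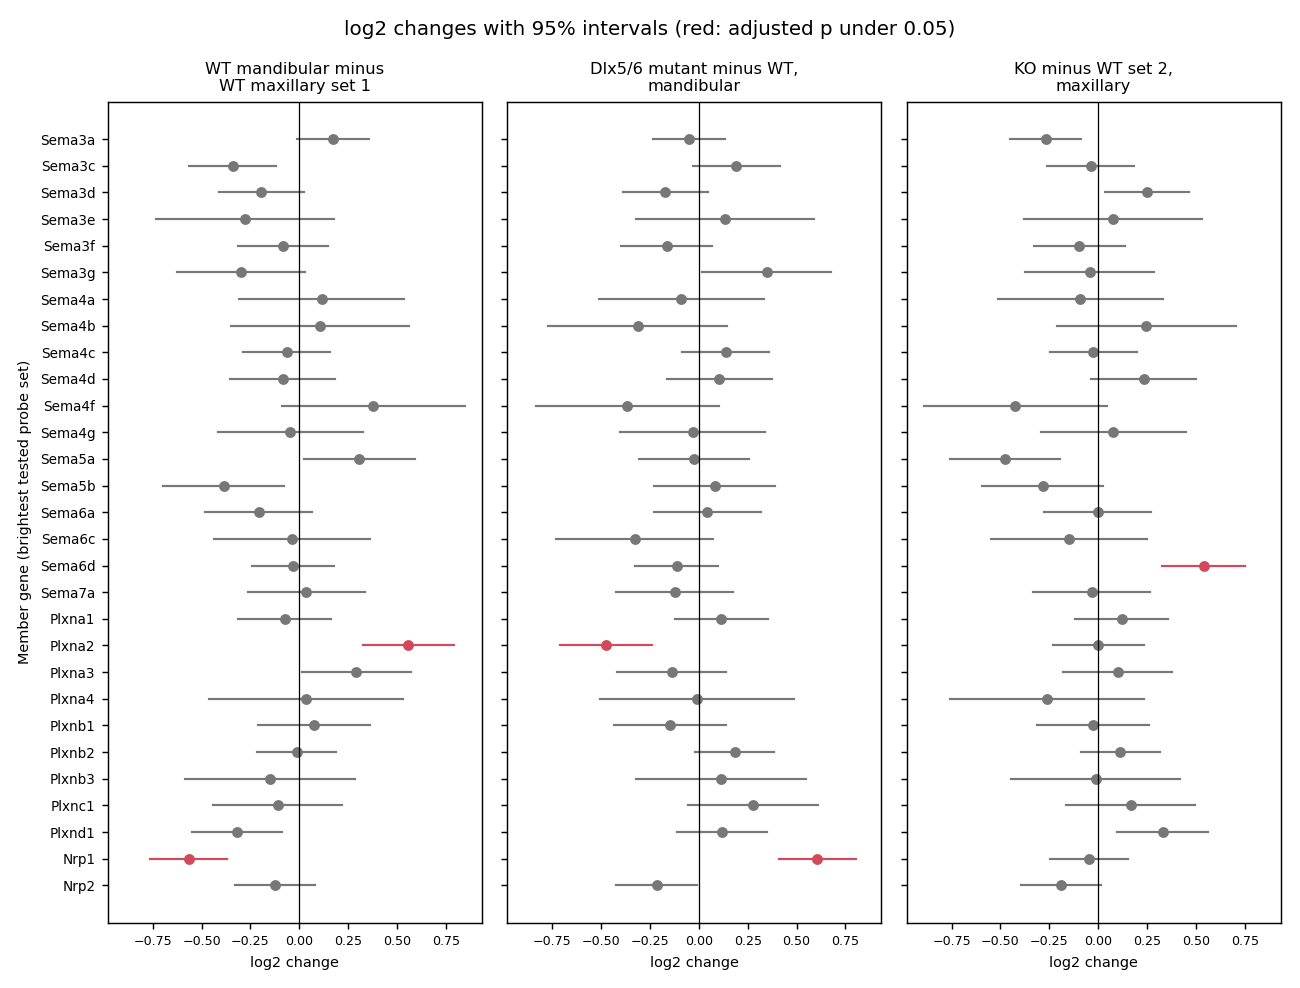
log2 changes (x axis) of the 29 tested member genes (y axis), 1 probe set a gene, in 3 comparisons. Points are limma estimates on the log2(signal + 32) scale with 95% intervals, and red marks an adjusted p under 0.05. In these probe sets Nrp1 and Plxna2 are called in the first and second panels with opposite signs, and Sema6d (0.54) in the third.

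The third comparison asked what changed in the KO maxillary branch. Sema6d was higher than in set 2, and it was the 1 member probe set called of 64, against 0.912% of all probe sets called, 0.464% higher and 0.448% lower. The higher share of all calls was 50.9%, and 33.2% after the median shift. The median log2 change was -0.04 over the members and 0.00 over all probe sets. Groups did not overlap for 15 of the 64 member probe sets (23.4%), against 14.7% of all probe sets.

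Sema6d is a membrane-bound ligand of class A plexins. Its brightest probe set, 1453055_at, read 249, 236 and 251 on KO arrays and 178, 138 and 158 on those of set 2, a change of 0.54 ± 0.10 (adjusted p = 0.00622) and a ratio of mean signals of 1.55. All KO arrays were above all set 2 arrays. The same probe set read 256, 204 and 203 in set 1, 225, 209 and 213 in WT mandibular and 181, 194 and 202 in Dlx5/6 mutant mandibular arrays. Set 2 was therefore the lowest group on average, and the change of KO against set 1 was 0.16 ± 0.10, not called (adjusted p = 0.373). Set 1 exceeded set 2 by 0.38 ± 0.10 (adjusted p = 0.0209), a difference in which array set and group cannot be told apart. Without set 2 replicate 2 the KO change was 0.47 (adjusted p = 0.0507). The other three tested Sema6d probe sets had signals of at most 40.1 on any array and changes of -0.19 to 0.07, not called.

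**Figure D4:**
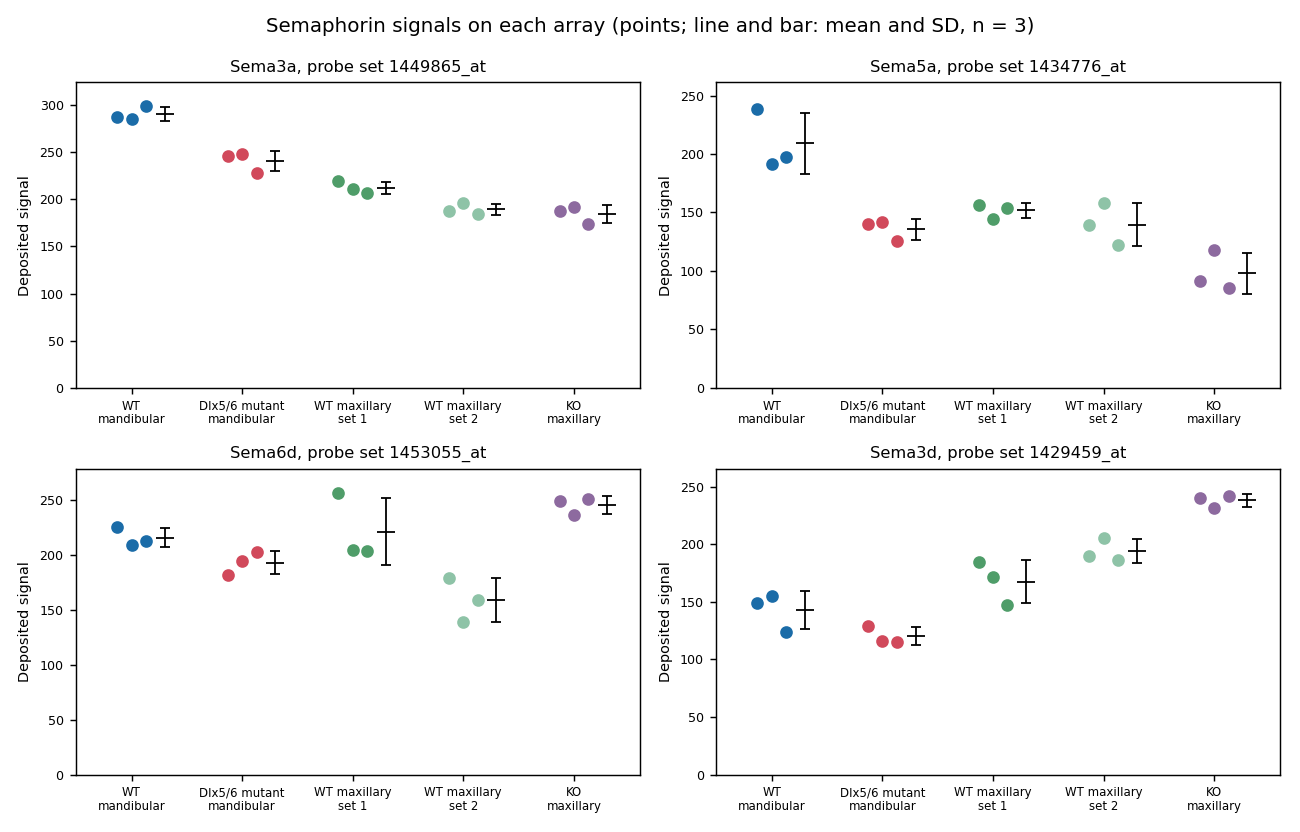
Deposited signal (linear scale from 0) of 1 probe set each of Sema3a, Sema5a, Sema6d and Sema3d, by group. Points are arrays, and the line and bar are the mean and SD (n = 3). The KO arrays of Sema6d (236 to 251) lie above those of set 2 (138 to 178) but among those of set 1 (203 to 256), and the WT mandibular arrays lie highest for Sema3a and Sema5a.

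Several members had uncalled probe sets with KO values outside the set 2 range. These members are named here after their values were seen. All 3 tested Sema5a probe sets had lower KO means, by -0.48 ± 0.14 in 1437422_at, -0.44 ± 0.12 in 1434776_at and -0.33 ± 0.15 in 1422167_at (adjusted p = 0.122, 0.0942 and 0.454). In 1434776_at the KO arrays read 91.2, 118 and 85.0 and those of set 2 139, 158 and 122. The groups did not overlap in any of the 3. Against set 1 the change of 1434776_at was -0.51 ± 0.12 and was called (adjusted p = 0.00660), and it was also called against set 2 without KO replicate 2 (-0.55, adjusted p = 0.0401). The dim 1422167_at was called against set 1 too (-0.49, limma adjusted p = 0.0360). In the brightest, 1437422_at, KO arrays read 222, 236 and 240 and those of set 2 342, 282 and 387. The arrays of set 1 read 244, 231 and 306 there and overlapped the KO arrays.
All 4 Nrp2 probe sets had lower KO means as well. Nrp2 encodes the co-receptor of Sema3f and VEGF-C. In 1426528_at the KO arrays read 63.5, 78.7 and 69.4 and those of set 2 119, 81.2 and 115 (-0.45 ± 0.12, adjusted p = 0.0971), and this probe set was called without set 2 replicate 2 (-0.59, adjusted p = 0.0227). In the brightest, 1435349_at, they read 234, 221 and 207 against 283, 252 and 234 (-0.19 ± 0.10, adjusted p = 0.533). KO and set 2 arrays overlapped in this Nrp2 probe set and in 1447343_at, and did not overlap in 1426528_at and 1456778_at. Against set 1, 3 of the 4 were called, by -0.41 to -0.77.
Sema3d, a secreted ligand, read 240.5, 232 and 242 in KO and 189.6, 206 and 186 in set 2 arrays in 1429459_at (0.25 ± 0.10, adjusted p = 0.387). Against set 1 that change was 0.46 ± 0.10 and was called (adjusted p = 0.00514). With the KO arrays in another array set than set 1, array set and genotype cannot be told apart in these values.

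Nrp1 and Plxna2 were not called in KO arrays against set 2. For Nrp1 1448943_at they read 566, 592 and 570.1 against 543, 598 and 674 in set 2 (-0.05 ± 0.10, interval -0.24 to 0.15). For 1418084_at they read 271, 279 and 265 against 249.9, 237 and 262 (0.11 ± 0.09, interval -0.07 to 0.29). For Plxna2 1453286_at they read 196, 189 and 225 against 189, 196 and 222 (0.00 ± 0.11, interval -0.23 to 0.23). For 1455037_at they read 58.7, 109 and 86.5 against 116, 77.7 and 115 (-0.25 ± 0.16, interval -0.58 to 0.08). KO and set 2 arrays overlapped in these Plxna2 probe sets and in Nrp1 1448943_at. For Nrp1 1418084_at every KO array lay above every set 2 array, as for Nrp1 1448944_at (0.17 ± 0.11, adjusted p = 0.653). The change of Plxna2 1451753_at, -0.42 ± 0.14 (adjusted p = 0.239), was called without KO replicate 1 (-0.61, adjusted p = 0.0455). Against set 1, in the other array set, Plxna2 1453286_at was called higher in KO (0.41 ± 0.11, adjusted p = 0.0195).

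Of 10 endothelial markers 1 was higher in KO than in set 2 arrays, Emcn by 0.47 ± 0.09, and the list's level was 7.28 to 7.51 against 7.003 to 7.22. Plxnd1, the endothelial plexin, read 239, 266 and 238 against 220.4, 173 and 181 (0.33 ± 0.11, adjusted p = 0.232). In set 1 it read 196, 275 and 259. Csf1r and Mrc1 of the 10 macrophage markers were higher (0.59 and 0.52), with list levels of 6.57 to 6.69 against 6.32 to 6.38. The arch mesenchyme list stood at 9.19 to 9.20 against 9.55 to 9.59, with Tfap2a and Alx1 higher and Dlx2 and Prrx1 lower. That mean level includes Dlx2, whose mean signal was 3.36 in KO and 422 in set 2 arrays. The median log2 change over the 8 genes of the list was 0.02. Of the 10 sensory neuron genes 3 were lower, and of the mesoderm and muscle markers Lhx2 was higher (0.74). The part of these cells in the KO values of Sema6d and the other members was not tested.

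Whether the mutant effects differ was tested as the Dlx5/6 change in mandibular arrays minus the KO change from set 2, each within its array set. Of the 64 member probe sets 3 were called, against 1.1% of all probe sets, 0.527% higher and 0.568% lower. The Nrp1 changes differed by 0.65 ± 0.14 in 1448943_at (adjusted p = 0.0121) and by 0.67 ± 0.12 in 1418084_at (adjusted p = 0.00350). The difference was not called for 1448944_at (0.32 ± 0.15) and 1457198_at (0.67 ± 0.22, adjusted p = 0.213). The Sema6d changes in 1453055_at differed by -0.65 ± 0.14 (adjusted p = 0.0205), from -0.11 ± 0.10 in the Dlx5/6 mutant and 0.54 ± 0.10 in the KO arrays. The Plxna2 differences, -0.47 ± 0.16 in 1453286_at and -0.67 ± 0.22 in 1455037_at, were not called (adjusted p = 0.231 and 0.217). With set 1 as control of the KO arrays, the Nrp1 difference was called for 1418084_at (0.72, adjusted p = 0.000478), and missed the threshold for 1448943_at (0.43, adjusted p = 0.0536). With that control the Sema6d difference was not called (-0.27, adjusted p = 0.300), the Plxna2 difference was called for 1453286_at (-0.89, adjusted p = 0.000894), and it was not called for 1455037_at (-0.68, adjusted p = 0.0651). The Sema6d difference also lost its call without any one of 6 arrays, and that of Nrp1 1448943_at without Dlx5/6 mutant replicate 2 or set 2 replicate 3 (adjusted p = 0.0515 and 0.0526).

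The wild-type maxillary groups were also compared with each other, where array set and group cannot be told apart. Between set 1 and set 2, 8.4% of all probe sets were called but 2 of the 64 member probe sets, Sema6d 1453055_at (0.38 ± 0.10) and Plxna2 1453286_at (-0.41 ± 0.11, adjusted p = 0.0238). Of the 10 tested sensory neuron genes 9 were higher in set 1. No Nrp1 probe set was called between the sets.

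Other genes of the pathway were read from a list of 46, of which 44 were tested and Timd2 and Mst1r were not. They comprised 13 co-receptors and adhesion partners, 8 VEGF ligands and receptors and 25 cytoplasmic effectors. Between wild-type branches 0 were higher and 3 lower in mandibular arrays: the neuronal adhesion gene L1cam (-0.61 ± 0.16), the VEGF-family ligand gene Vegfd (-0.48 ± 0.13) and the kinase gene Fyn (-0.51 ± 0.11). In the Dlx5/6 mutant 0 were higher and 1 lower, Dpysl3 (-0.53 ± 0.11, adjusted p = 0.00904), whose protein belongs to the family that relays Sema3a signals to the cytoskeleton. In the KO arrays 0 were called in either direction by limma. Against set 1 the Dlx5/6 mutant arrays were higher for the GTPase gene Rac1 (0.24 ± 0.05) and lower for Dpysl3 (-0.68 ± 0.11). None of the 8 VEGF ligand and receptor genes, Vegfa and Kdr included, was called in either mutant comparison.

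The other members stayed below the call in all of these comparisons with their main controls. They were Sema3c to Sema3g, Sema4a to Sema4d, Sema4f, Sema4g, Sema5b, Sema6a, Sema6c and Sema7a among the ligands, and Plxna1, Plxna3, Plxna4, Plxnb1 to Plxnb3, Plxnc1 and Plxnd1 among the receptors, with Nrp2. Their brightest probe sets ranged widely in precision. The standard error was 0.10 for Plxnb2, with signals of 326 to 589, and 0.24 for Plxna4, with signals of 17.1 to 78.1. Single probe sets of Sema4b, Sema4d, Sema5a, Sema5b, Sema7a, Plxna1 and Plxna4 and 3 of Plxnc1 were not tested, since their signals were too low.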

How the data were processed

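The authors deposited 1 linear intensity for each probe set and Affymetrix mouse array. How it was summarised from the scans is not given in the sources used here. After trimming 2% of the deposited intensities at each end, the mean was 150 on each array, so they had been scaled before deposit. Probe sets were named from GEO's platform annotation (1 symbol for 34945, several for 932, none for 9160), and all 79 member probe sets matched RefSeq by gene identifier. Values were converted to log2(signal + 32), quantile normalized because array medians spanned 0.159 (5.87 to 6.03), and fitted with limma 3.58.1 in R 4.3.3: a mean per group, 10 residual degrees of freedom, an intensity trend, two-sided tests. The fit was checked on simulated data. Of a gene's probe sets the brightest led, with preference for IDs not ending in _x_at or _s_at. Every member gene was named, with values on every array for genes called in a comparison, and at most 4 called genes of a marker or pathway list. The members and lists were chosen with earlier results of these data known. Replicate numbers did not pair arrays: same-number residuals correlated between -0.096 and 0.085 over 30 pairs. The median standard error of a log2 change was 0.149, and the number of arrays limits the precision. Alternatives covered scaling, pseudocount (8, 128), filter, trend, threshold, control set, replicate block and leaving out each array.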

Additional observations from a re-analysis of the deposited data

Results flagged for a closer look

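A difference between the effects of the mutants was the reason to list 3 values. The Dlx5/6 effect on Nrp1 exceeded the KO effect by 0.67 ± 0.12 in probe set 1418084_at and by 0.65 ± 0.14 in 1448943_at (limma adjusted p = 0.00350 and 0.0121). For Sema6d in 1453055_at the Dlx5/6 effect minus the KO effect was -0.65 ± 0.14 (adjusted p = 0.0205). Branch, genotype and array set differ together in this contrast and cannot be told apart. Single arrays far from their group were not looked for by a rule, since the groups held 3 arrays.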

How the results depend on the processing

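Of 19 named changes, 9 kept their direction and call under every alternative tried, and none reversed. The member counts stayed close to their main values of 6, 7, 1, 0 and 3 (wild-type branches, Dlx5/6, KO, mutant mandibular against maxillary, difference of effects) and 2 (set 1 against set 2) under other scalings, pseudocounts and filters. The counts that moved by over 1.5 times follow. Without the intensity trend the probe sets called were 450 (Dlx5/6), 172 (KO), 125 (mutant mandibular against maxillary), 218 (difference) and 1624 (between sets), against 833, 289, 188, 347 and 2662, with 1 member for the difference and 1 between sets. Plxna2 1453286_at and Sema5a 1434776_at then lost their Dlx5/6 call (adjusted p = 0.0644 and 0.0565). At an adjusted p under 0.01 the counts were 530 (wild-type branches, against 834), 397, 152, 106, 194 and 1248, with 4 (Dlx5/6), 1 (difference) and 0 (between sets) members. With only the groups compared, 2 members were called in the KO and 1 between sets. With the other WT maxillary set as control, which mixes the array sets, the counts were 3295 (wild-type branches), 3320 (KO), 3541 (mutant mandibular against maxillary) and 2255 (difference), and the members 11, 9, 4 and 5.

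Leaving out each array gave 607 to 693 calls between wild-type branches, 499 to 655 for Dlx5/6, 180 to 223 for KO, 121 to 143 for mutant mandibular against maxillary, 259 to 307 for the difference and 1777 to 2110 between sets. The members called were 5 to 7, 4 to 6, 1 to 2, 0 to 0, 2 to 3 and 0 to 2. The lowest counts came without Dlx5/6 mutant replicate 2 (499 and 121) or 3 (521, and 4 members) and without set 2 replicate 1 (180) or 3 (181). The 2 KO members came without KO replicate 1 or 2. Between sets, 0 members were called without set 2 replicate 2 or 3, and 1 without set 1 replicate 1. That member was Plxnd1 1451475_at (0.40, limma adjusted p = 0.0348), while Sema6d 1453055_at and Plxna2 1453286_at lost their calls there. With the replicate number as a block, 788, 780, 262, 177, 335 and 2475 probe sets and the same numbers of members were called as without it. The numbers do not pair the arrays. The cause of these shifts was not tested. Dim probe sets, with larger standard errors, limit what can be seen for most semaphorins of classes 4 and 6.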
